A study of Mus musculus with 6 samples.

Results

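The interferon response and antigen presentation genes considered here are 38 genes, taken by gene symbol from the 34245 genes of the expression table of mouse islets with and without the lipid transporter gene Abca12. They comprise 26 genes induced by interferons, 8 genes of the MHC class I path and 4 genes of MHC class II. Polyadenylated RNA of whole pancreatic islets was sequenced from 3 Abca12 knockout (KO) and 3 heterozygous control (HET) mice, all C57BL/6J and 5 weeks old. The KO mice carried the deleted (tm1d) allele, made from a floxed allele by Rip1-Cre. The HET mice carried a single copy of the floxed allele and the same Rip1-Cre. Rip1-Cre places the recombinase under the rat insulin promoter, which is active in beta cells, so other cells of the islet are not its intended target, and both groups carry it. Each library has its own animal code, and nothing else in the labels says how the animals are related. The p-values therefore measure the spread between these 6 libraries.

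Interferons bind receptors that signal through Janus kinases to STAT proteins. A complex that holds Stat2 and Irf9 then binds the interferon-stimulated response element (ISRE) in the promoters of antiviral genes. Most cells, beta cells among them, load cytosolic peptides onto MHC class I, whereas MHC class II is mainly a product of macrophages, dendritic cells and B cells. In islets, raised MHC class I and interferon-induced genes are known from type 1 diabetes.

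The promoter sequences show how the gene groups differ in the elements before their start sites. Promoters were found for 31 of the 38 genes in the RefSeq table (build GRCm38.p6, from 250 bases before to 50 bases after the start). The ISRE was searched as GAAA, any 2 bases and GAAA again, on both strands with overlaps counted. It was found in promoters of 16 of 23 interferon-induced genes (69.6%), 2 of 6 class I genes (B2m and H2-T23) and 0 of 2 class II genes, against 3.99% of all 27025 genes counted the same way (any promoter) and 3.44% of all 32851 promoters. The Y box, an element of MHC promoters bound by NF-Y, was searched as CTGATTGG on both strands. It was found for 0 of 23 interferon-induced genes, for 4 of 6 class I genes (H2-D1, H2-K1, H2-T23 and Tap1) and for both class II genes with a promoter in the table, H2-Aa and H2-Eb1, against 4.7% of all genes and 4.1% of all promoters. Neither motif overlaps the other in the sequences shown. The 250 bases before the start of 6 genes are given 5′ to 3′ on the strand of the gene, with each motif in capitals. The 6 were picked among the genes described below that hold a match. Others with a match, such as H2-D1, H2-K1 and Tap1, are not shown, and Irf9 and Irf1 had 0 ISRE matches. Isg15 (chr4:156200819-156201068, minus strand) holds 3 overlapping ISRE matches, of which the farthest from the start begins at position -78. Bst2 (chr8:71537473-71537722, minus strand) holds 2 overlapping matches from position -130. Stat2 (chr10:128270248-128270497, plus strand) holds 1 at position -222, B2m (chr2:122147437-122147686, plus strand) holds 1 at position -139, and the Y box stands at position -51 in H2-Aa (chr17:34287824-34288073, minus strand) and at -62 in H2-Eb1 (chr17:34305617-34305866, plus strand).
Isg15: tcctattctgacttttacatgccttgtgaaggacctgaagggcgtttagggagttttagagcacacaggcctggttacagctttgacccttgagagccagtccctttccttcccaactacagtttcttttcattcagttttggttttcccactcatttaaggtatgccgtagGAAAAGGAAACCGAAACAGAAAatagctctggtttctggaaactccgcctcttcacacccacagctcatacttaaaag
Bst2: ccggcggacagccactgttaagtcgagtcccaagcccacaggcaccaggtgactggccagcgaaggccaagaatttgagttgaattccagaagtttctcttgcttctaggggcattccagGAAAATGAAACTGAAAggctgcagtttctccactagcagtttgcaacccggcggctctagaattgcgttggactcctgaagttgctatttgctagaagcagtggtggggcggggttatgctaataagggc
Stat2: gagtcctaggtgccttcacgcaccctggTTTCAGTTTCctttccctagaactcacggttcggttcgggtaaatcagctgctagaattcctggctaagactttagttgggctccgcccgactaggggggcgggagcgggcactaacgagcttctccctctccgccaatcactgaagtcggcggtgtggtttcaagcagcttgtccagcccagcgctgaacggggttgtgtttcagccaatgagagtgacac
B2m: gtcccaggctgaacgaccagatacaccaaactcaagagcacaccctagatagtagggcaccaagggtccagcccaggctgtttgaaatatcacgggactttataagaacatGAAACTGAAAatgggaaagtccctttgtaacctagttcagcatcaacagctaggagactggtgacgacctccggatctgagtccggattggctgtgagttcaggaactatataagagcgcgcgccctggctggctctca
H2-Aa: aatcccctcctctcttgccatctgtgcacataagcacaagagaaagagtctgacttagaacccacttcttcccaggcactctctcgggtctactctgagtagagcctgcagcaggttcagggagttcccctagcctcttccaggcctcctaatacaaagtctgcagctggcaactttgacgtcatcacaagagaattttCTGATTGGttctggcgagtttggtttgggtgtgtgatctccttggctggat
H2-Eb1: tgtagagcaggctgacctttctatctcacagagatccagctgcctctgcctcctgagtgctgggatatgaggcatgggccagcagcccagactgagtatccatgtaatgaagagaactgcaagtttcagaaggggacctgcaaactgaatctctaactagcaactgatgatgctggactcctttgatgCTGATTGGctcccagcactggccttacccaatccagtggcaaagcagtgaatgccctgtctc
A match is a description of these letters, not evidence that the site is bound in islets.

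The 6 libraries held 27447026 to 35511008 reads, and 3 reads in a library correspond to 0.0845 to 0.109 RPM, the reads of a gene per 1000000 reads of its library. Abca12 itself, the targeted gene, had 2 reads in KO 1 and 0 reads in each of the other 5 libraries, so its level does not check the labels. KO 1 and HET 2 held 9612 and 10494 reads of the female transcript Xist and 0 reads of the Y-linked gene Ddx3y. KO 3, HET 1 and HET 3 held 1 to 5 reads of Xist and 1470 to 3156 reads of Ddx3y. Both genotypes thus mixed the sexes, and sex was not in the fit. KO 2 held 13659 reads of Xist and also 1481 reads of Ddx3y, and whether 1 animal gave both cannot be told from the table. Without KO 2, 0 of the 35 genes tested were called, as with it. Over all genes tested 0 were called in either fit, so this count cannot show whether KO 2 affects the values. Insulin transcripts were high in every library, with Ins2 at 63778.9 to 85826.9 RPM, whereas summed acinar markers ranged from 545.1 to 39770.1 RPM and were highest in HET 1. The main axis of variation over all genes (70.5% of the variance) placed KO 1, KO 2 and HET 1, which have the 3 lowest animal codes, at 23.3 to 46.7 and KO 3, HET 2 and HET 3 at -40.2 to -34.5. This order is known from earlier results of these data and is described below without a test. The 2 sets are called the lower-code and higher-code libraries, and no label says what the codes share.

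Of the 38 genes, 35 reached the minimum mean of 1 RPM. None of them was called different between KO and HET in limma's moderated test (log2(RPM + 1), Benjamini-Hochberg adjusted p = 0.9998 for each of the 35). Over all 14238 genes tested 0 were called (0%), by limma-voom as well, and 250 genes (1.76%) had an unadjusted p under 0.05, of which 183 were higher in KO (1.29%) and 67 lower (0.471%). None of those 250 was among the 35 genes. With the code set as a block, 3 of the 35 (Irgm1, Nlrc5 and Rsad2) had an unadjusted p under 0.05, where 5.39% of all genes did. The median log2 difference, KO minus HET, was 0.06 over 23 interferon-induced genes, -0.26 over 8 class I genes and 0.44 over 4 class II genes, beside 0.01 over all genes tested. In 5 of the 35 genes the 3 KO and 3 HET libraries did not overlap, where 5.74% of all genes tested had no overlap (4.2% with KO above and 1.54% with KO below). These were Stat2 and Irf9, with KO above HET, and H2-D1, H2-K1 and Tap1, with KO below HET. Without KO 1 this count was 8 (22.9%, against 9.57% of all genes tested), without KO 3 it was 9 (25.7%, against 23.4%) and without HET 1 it was 11 (31.4%, against 33.1%).

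**Figure D1:**
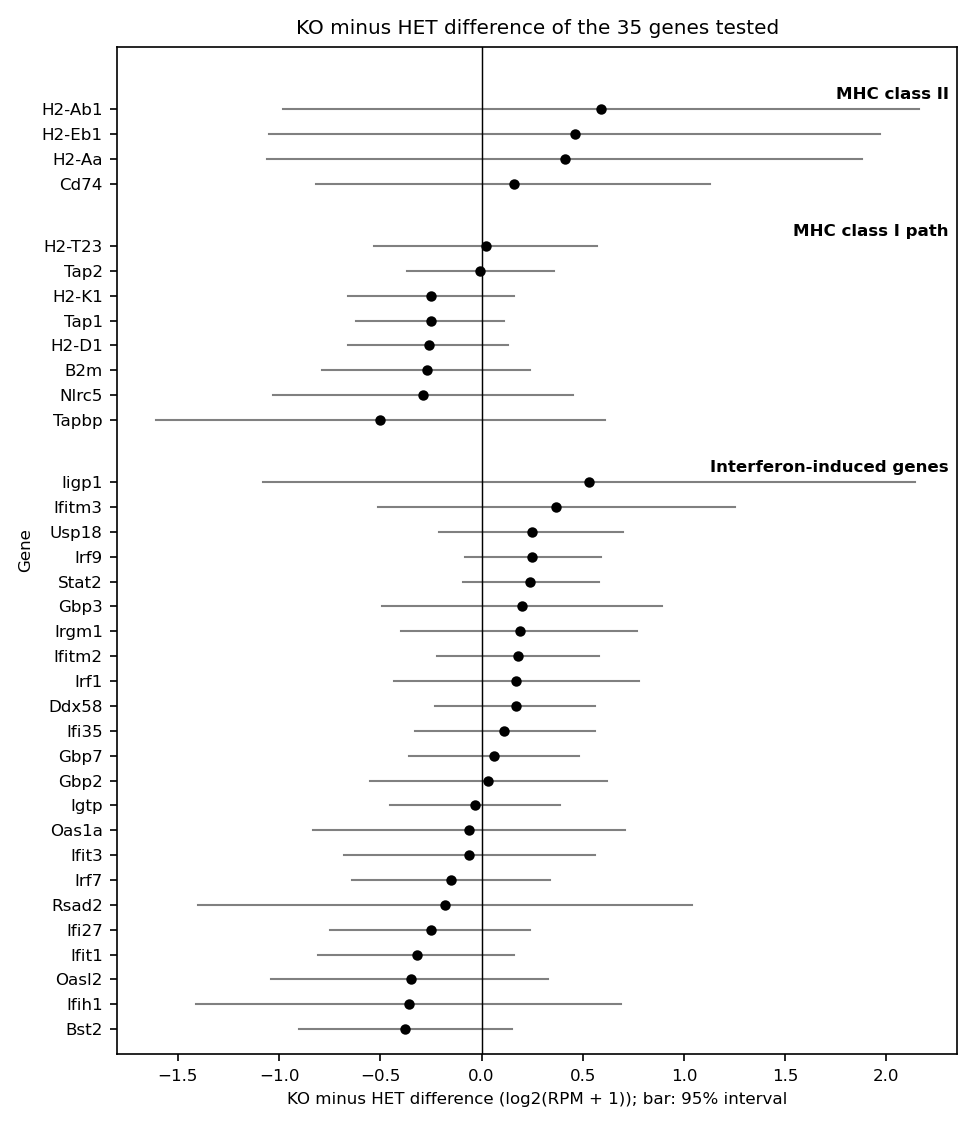
Log2 difference, KO minus HET, on the log2(RPM + 1) scale for the 35 genes tested, with the 95% confidence interval of limma's moderated test, grouped into interferon-induced, class I and class II genes. Every interval includes 0, and the class II intervals are among the widest.

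The transcription factors that carry the interferon signal were present in all libraries. Stat2 (ENSMUSG00000040033.16, chr10:128270559-128292849), a subunit of the ISRE-binding complex, measured 25.4, 25 and 25.2 RPM in KO 1 to 3 and 20.8, 22.4 and 20.3 RPM in HET 1 to 3. The lowest KO library stood above the highest HET library, with means of 25.2 ± 0.204 and 21.2 ± 1.12 RPM (SD, n = 3 each). The log2 difference was 0.24 (95% interval -0.09 to 0.58). Irf9 (ENSMUSG00000002325.15, chr14:55603571-55610030), the DNA-binding partner of Stat2, measured 22.3, 21.5 and 22.6 RPM in KO and 19.1, 18.1 and 18.1 RPM in HET. Its groups did not overlap either, and the difference was 0.25 (-0.08 to 0.59). Of its exon bases, 2.28% also lie in exons of Rnf31 on the same strand. For both genes the KO library or libraries stood above the HET library or libraries among the lower-code libraries and among the higher-code libraries, by 0.27 and 0.23 for Stat2 and by 0.19 and 0.31 for Irf9. The interval of neither gene excludes 0.

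Irf1, a transcription factor induced mainly by interferon gamma, measured 51, 50.1 and 31.6 RPM in KO and 51.4, 34.6 and 31.4 RPM in HET. The 3 lower-code libraries were above the 3 higher-code libraries, and the genotypes overlapped (difference 0.17, -0.43 to 0.78). Irf7, which amplifies type I interferon production, measured 7.2, 7.87 and 5.21 RPM in KO and 8.66, 6.56 and 7.42 RPM in HET, with overlap by genotype and by code.

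The antiviral effectors differed in level. Ifit1, which binds viral RNA, measured 5.34, 4.34 and 4.55 RPM in KO and 5.3, 5.58 and 7.9 RPM in HET. KO 1 lay between HET 1 and HET 2, so the groups overlapped, and the difference was -0.32 (-0.81 to 0.16). Bst2, or tetherin, which holds budding virus at the membrane, measured 3.36, 4.0 and 5.76 RPM in KO and 5.2, 5.66 and 6.79 RPM in HET. KO 3 lay within the HET range, all 3 lower-code libraries lay below the higher-code libraries, and the difference was -0.38 (-0.90 to 0.15). Ifi27, a mitochondrial interferon-induced protein, measured 20.6, 19.4 and 27.9 RPM in KO and 21.5, 29.3 and 30.7 RPM in HET. The lower-code libraries were again lower, and the difference was -0.25 (-0.75 to 0.24).

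The genes Isg15, Ifit2 and Ifitm1 were under the mean of 1 RPM and were not tested. Isg15, a ubiquitin-like modifier that is among the most inducible interferon genes, had 36, 48 and 6 reads in KO and 41, 10 and 5 reads in HET. KO 1, KO 2 and HET 1 held most of these reads, and the lowest of the 3 stood 4.38-fold above the highest of the other 3 in RPM. Ifit2, an RNA-binding relative of Ifit1, had 31, 41 and 22 reads in KO and 50, 21 and 18 reads in HET, and Ifitm1, a membrane protein that limits viral entry, had 37, 36 and 2 reads in KO and 19, 11 and 4 reads in HET. In both genes the lower-code libraries lay above the higher-code libraries in RPM, and KO overlapped HET.

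The immunity-related GTPase Iigp1, which acts on the vacuoles of intracellular parasites, varied more than any other tested gene of the 38, as a ratio of its highest to its lowest library of 23.4. It had 79, 101 and 5 reads in KO and 109, 8 and 5 reads in HET, or 2.71, 3.4 and 0.182 RPM and 3.52, 0.225 and 0.151 RPM. The lowest of KO 1, KO 2 and HET 1 was 12-fold above the highest of the other 3 libraries. KO and HET overlapped fully, and the difference was 0.53 (-1.08 to 2.14). The related Igtp and Irgm1 did not share this pattern. Igtp measured 5.52, 5.92 and 6.23 RPM in KO and 5.75, 5.38 and 7.03 RPM in HET, and Irgm1 measured 10.9, 10.2 and 13 RPM in KO and 6.59, 11.7 and 12.2 RPM in HET. Igtp overlapped by genotype and by code, whereas the lower-code libraries of Irgm1 were all below the higher-code libraries.

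Among the guanylate-binding proteins, Gbp2 measured 2.43, 2.22 and 1.31 RPM in KO and 2.65, 1.77 and 1.36 RPM in HET, and Gbp3 measured 1.82, 1.68 and 0.947 RPM in KO and 2.17, 0.704 and 0.784 RPM in HET. Both were higher in the 3 lower-code libraries. Gbp7 measured 10, 11.4 and 9.25 RPM in KO and 8.92, 11.3 and 9.2 RPM in HET, with overlap by genotype and by code.

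Cytosolic RNA sensors are themselves induced by interferon. Ifih1 (MDA5) measured 6.75, 9.11 and 21.1 RPM in KO and 8.63, 20.8 and 16.5 RPM in HET. The 3 lower-code libraries were below the other 3, the opposite order to Isg15 and Iigp1. Ddx58 (RIG-I) measured 21.4, 22.9 and 17.1 RPM in KO and 18, 18.4 and 17.6 RPM in HET, and both groups overlapped. Rsad2, or viperin, which makes an antiviral nucleotide, measured 17.2, 14.2 and 5.9 RPM in KO and 27.5, 8.31 and 9.53 RPM in HET. It was highest in HET 1, and the lower-code libraries were above the higher-code libraries. The difference of Rsad2 was -0.18, and -0.65 with the code set as a block (unadjusted p = 0.00192, limma adjusted p = 0.7134).

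The remaining interferon-induced genes overlapped between KO and HET. Usp18, which removes Isg15 from proteins, measured 20.1 to 21.7 RPM over the KO libraries and 13.8 to 21.9 RPM over the HET libraries. Oasl2, of the oligoadenylate synthetase family, measured 4.91 to 6.96 RPM over the KO libraries and 4.98 to 11 RPM over the HET libraries, and Oas1a of the same family 0.807 to 2.81 RPM over the KO libraries and 0.97 to 2.25 RPM over the HET libraries. Ifit3 measured 1.13 to 2.16 RPM over the KO libraries and 1.0 to 2.38 RPM over the HET libraries, and Ifi35 13.9 to 18.8 RPM over the KO libraries and 13.5 to 18.1 RPM over the HET libraries. Ifitm3, an inhibitor of viral entry, measured 3.53 to 7.2 RPM over the KO libraries and 2.17 to 6.92 RPM over the HET libraries. Ifitm2 measured 10.4 to 12.4 RPM over the KO libraries and 9.05 to 10.9 RPM over the HET libraries, but 40.9% of its exon bases are shared with exons of Gm45717 on the same strand, so its reads are uncertain. Per kilobase of exon, the mean levels ran from 0.254 RPM per kb (RPKM) for Ifit2 to 17 RPKM for Ifi27.

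**Figure D2:**
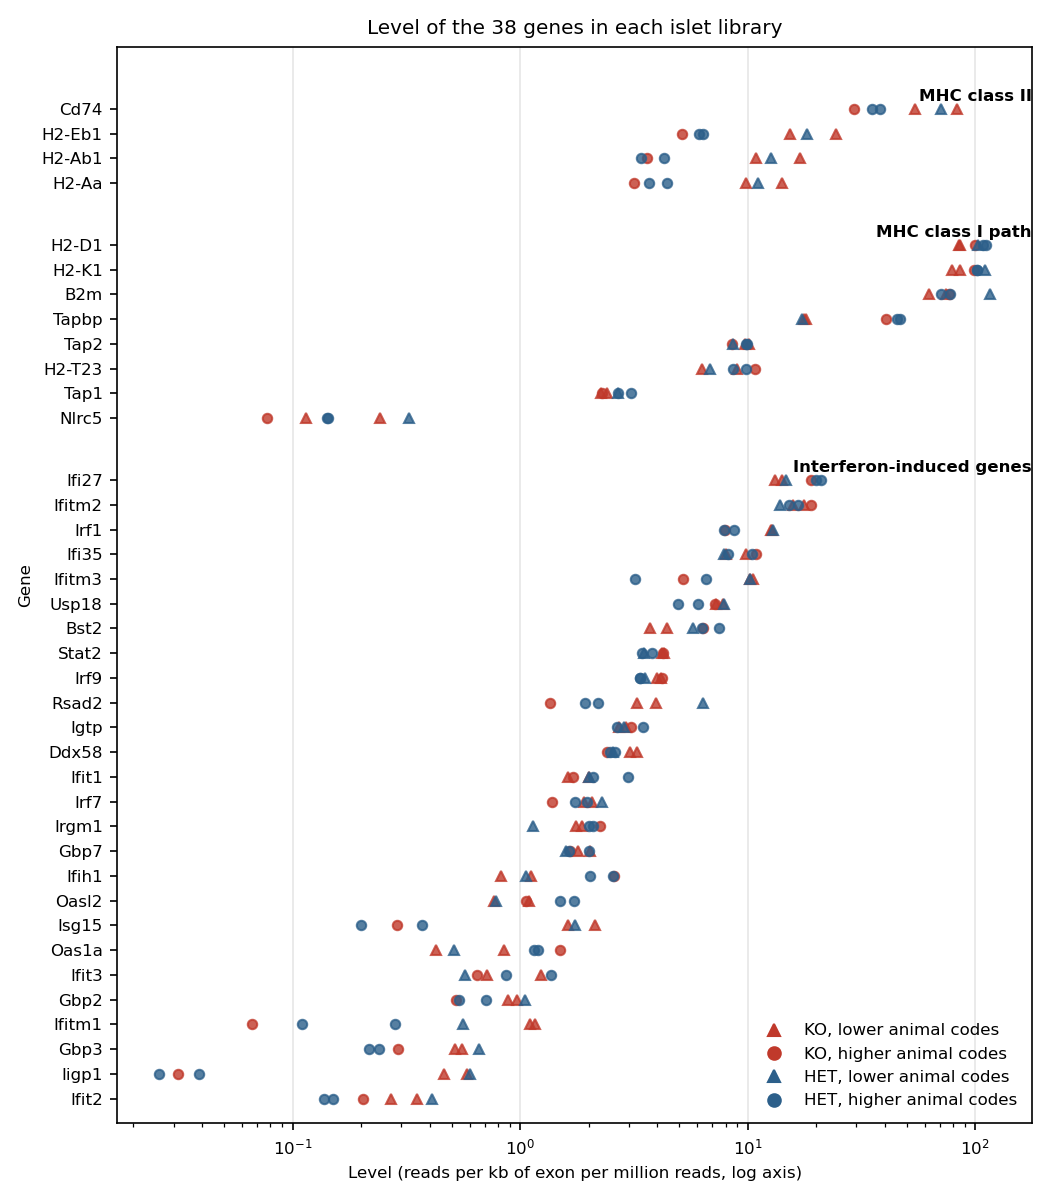
Level of the 38 genes in each of the 6 libraries, in RPKM on a log axis, ordered by group. Points mark KO and HET libraries, and the class I genes H2-D1, H2-K1 and B2m have the highest mean levels, at 98.7, 96.4 and 79.7 RPKM.

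Summed over the 26 interferon-induced genes, KO libraries held 284.7, 276.8 and 264.4 RPM and HET libraries 277.7, 256.8 and 262.1 RPM. The genotypes overlapped, whereas all 3 lower-code libraries (276.8 to 284.7 RPM) were above the higher-code libraries (256.8 to 264.4 RPM). Of 23 tested genes, 7 had all 3 lower-code libraries above the higher-code libraries and 5 had them all below, whereas over all genes tested these shares were 16.8% and 31.3%. The 7 include Iigp1 and Gbp3, at 0.151 to 0.225 and 0.704 to 0.947 RPM in the higher-code libraries. These genes reached the minimum mean of 1 RPM only through the lower-code libraries, so the filter favoured their order. Of the interferon-induced genes with a promoter in the table, tested or not, the ISRE was found in 5 of 8 with the lower codes above, 4 of 4 with them below and 7 of 11 with overlap.

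H2-D1, H2-K1 and B2m of the MHC class I path were the most abundant of the 38 genes per length. Of the 8 class I genes 7 had a difference below 0, where 48.6% of all genes tested did. H2-K1 (ENSMUSG00000061232.16, chr17:33996017-34000333) and H2-D1 (ENSMUSG00000073411.11, chr17:35262730-35267499) encode the classical heavy chains that present peptide to CD8 T cells. H2-D1 measured 217.9, 220.1 and 256.7 RPM in KO and 265.7, 279.5 and 287.4 RPM in HET. Every KO library was below every HET library, with means of 231.6 ± 21.8 and 277.5 ± 11 RPM (SD, n = 3 each) and a log2 difference of -0.26 (-0.66 to 0.13). H2-K1 measured 232.7, 252.5 and 291.4 RPM in KO and 325.5, 298.4 and 298.6 RPM in HET. Here too the groups did not overlap, with means of 258.9 ± 29.8 and 307.5 ± 15.6 RPM and a difference of -0.25 (-0.66 to 0.16). The heavy chain genes are close paralogs, so reads may have been split between them in a way the sources used here do not give. The KO minus HET difference was -0.28 among the lower-code and -0.14 among the higher-code libraries for H2-D1, and -0.42 and -0.03 for H2-K1.

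B2m, the light chain of every class I molecule, measured 63.7, 54 and 65.9 RPM in KO and 100.3, 66.7 and 60.5 RPM in HET. HET 1 stood apart at the top, HET 3 lay within the KO range, and the difference was -0.27 (-0.79 to 0.24), or -0.06 without HET 1 and -0.42 without HET 3. H2-T23, a nonclassical class I heavy chain known as Qa-1, measured 25.9, 18.2 and 31.3 RPM in KO and 19.8, 25 and 28.5 RPM in HET, with overlap (difference 0.02). Tap1 and Tap2 form the transporter that carries peptides into the endoplasmic reticulum. Tap1 measured 13.1, 12.4 and 12.6 RPM in KO and 14.7, 14.7 and 16.8 RPM in HET. The groups did not overlap, with means of 12.7 ± 0.362 and 15.4 ± 1.2 RPM (SD, n = 3 each) and a difference of -0.25 (-0.62 to 0.11). Tap2 measured 38, 36.7 and 32.1 RPM in KO and 32.6, 37 and 37.6 RPM in HET, and the groups overlapped (difference -0.01). Psmb9 lies on the opposite strand from Tap1 and shares 3.87% of its exon bases, and Gm15821 shares 14.1% of those of Tap2 on the opposite strand. Whether the counting used strand is not given in the sources used here.

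Tapbp, or tapasin, which tethers class I molecules to the transporter, measured 65.4, 63.9 and 146.9 RPM in KO and 63.1, 164.1 and 169.9 RPM in HET. The 3 lower-code libraries measured 63.1 to 65.4 RPM, and the lowest of the 3 higher-code libraries was 2.25-fold above the highest of them. Of the exon bases of Tapbp, 24.9% are shared with Gm19412 on the opposite strand. Its difference was -0.50 (-1.61 to 0.61), and -0.08 with the code set as a block. Nlrc5, the transactivator of class I genes, measured 2.06, 0.975 and 0.656 RPM in KO and 2.75, 1.21 and 1.21 RPM in HET, with overlap. Its difference was -0.29, and -0.51 with the code set as a block (unadjusted p = 0.0401, limma adjusted p = 0.9223). The summed class I level was 658.9, 658.8 and 837.5 RPM in KO and 824.5, 886.6 and 900.5 RPM in HET, so KO 3 lay above HET 1. By code, the sum was lower in all 3 lower-code libraries (658.8 to 824.5 RPM) than in the higher-code libraries (837.5 to 900.5 RPM). Of the 8 genes, however, only Tapbp had this order and 7 overlapped by code. Over all genes tested, 31.3% had the lower-code libraries below. The sum includes Tapbp, so its order does not describe the other genes of the path.

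The 4 class II genes were higher in KO 1, KO 2 and HET 1 than in the other 3 libraries. Cd74 (ENSMUSG00000024610.15, chr18:60803848-60812646), the invariant chain that guides class II molecules, measured 139.9, 91.5 and 49.1 RPM in KO and 118.7, 64.2 and 59.3 RPM in HET. H2-Aa (ENSMUSG00000036594.15, chr17:34282744-34287827), an alpha chain, measured 53.5, 37.3 and 12 RPM in KO and 42.2, 14 and 16.8 RPM in HET. In both genes KO 1 was the highest library and KO 3 the lowest, so KO spanned the whole HET range. H2-Ab1, the beta chain that pairs with H2-Aa, measured 43.4, 27.9 and 9.29 RPM in KO and 32.4, 8.7 and 11 RPM in HET. H2-Eb1, a beta chain, measured 47.7, 29.7 and 10 RPM in KO and 35.6, 12.4 and 11.9 RPM in HET. The lowest lower-code library exceeded the highest higher-code library 1.42-fold for Cd74, 2.22-fold for H2-Aa, 2.54-fold for H2-Ab1 and 2.40-fold for H2-Eb1.

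The class II differences, KO minus HET, were 0.16 (-0.82 to 1.13) for Cd74, 0.41 (-1.06 to 1.88) for H2-Aa, 0.59 (-0.98 to 2.16) for H2-Ab1 and 0.46 (-1.05 to 1.97) for H2-Eb1. Their median of 0.44 was -0.11 with the code set as a block, -0.01 without KO 1, 0.92 without HET 1 and 1.04 without KO 3. The sign of Cd74, H2-Aa and H2-Eb1 also turned in the block fit, to -0.20, -0.12 and -0.09. Genotype sets are uneven over the codes, with 2 KO and 1 HET among the lower-code libraries. All 4 genes had the lower-code libraries above, where 16.8% of all genes tested did.

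**Figure D3:**
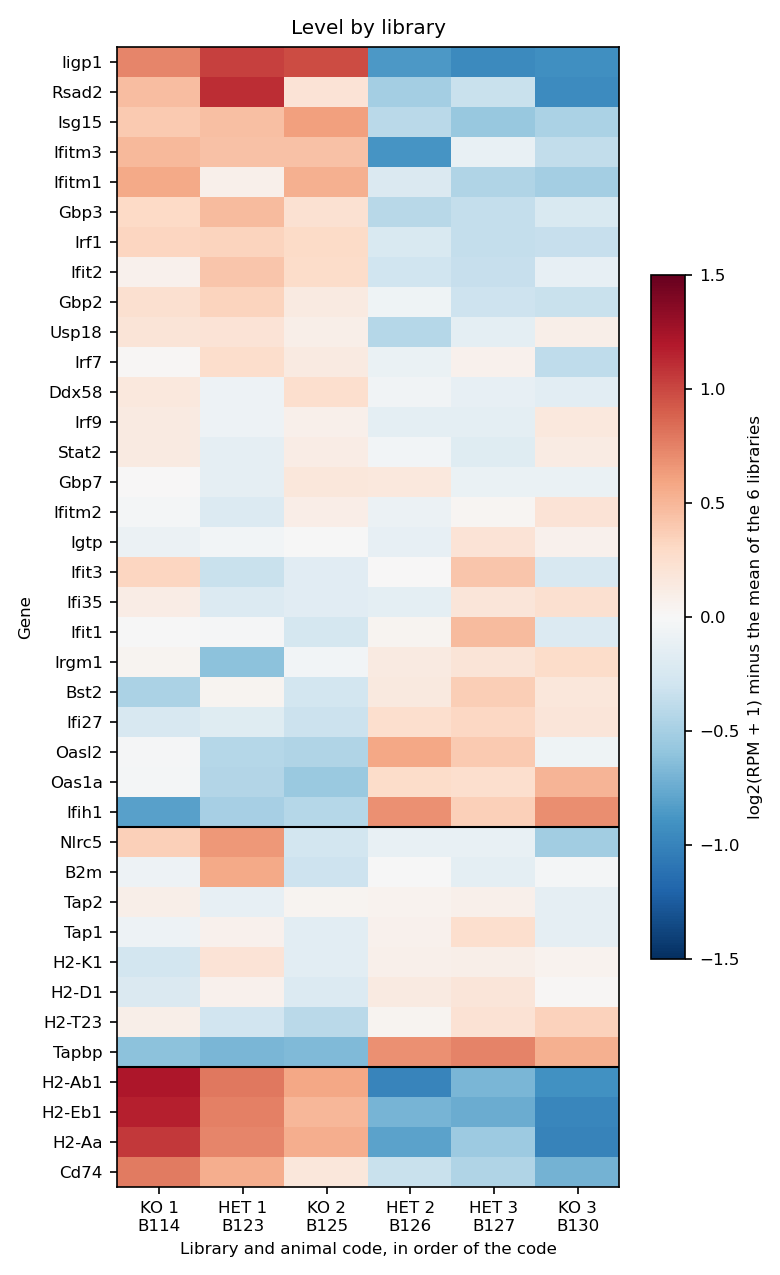
Level of each of the 38 genes in each library as the log2(RPM + 1) value minus the mean of that gene over the 6 libraries, with libraries in order of animal code. The 4 class II genes and Iigp1 are above their mean in KO 1, HET 1 and KO 2 and below it in HET 2, HET 3 and KO 3, while Tapbp and Ifih1 show the opposite order.

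Markers of the cells that carry class II were followed beside these genes. Summed macrophage markers, all 20 of 20 with reads, reached 176.8, 133.7 and 175.1 RPM in KO and 145.0, 180.0 and 165.9 RPM in HET, and did not separate the lower-code from the higher-code libraries. C1qa, a complement gene of tissue macrophages, measured 60.9, 47.7 and 69.3 RPM in KO and 38.7, 56.1 and 50.5 RPM in HET. Of the 16 macrophage markers tested, 7 had the lower-code libraries above the others and 4 below, where these shares were 16.8% and 31.3% over all genes tested, and 5 overlapped. Lyz2, a lysozyme gene of macrophages, was among those below, at 12, 8.81 and 20.7 RPM in KO and 13.8, 21.4 and 19.7 RPM in HET. Adgre1 (F4/80), picked after its values were seen, was among those above, at 3.8, 3.09 and 1.09 RPM in KO and 3.33, 2.34 and 1.6 RPM in HET. The summed class II level spanned 80.4 to 284.5 RPM over the same libraries. Summed dendritic cell markers were 5.82, 5.45 and 2.4 RPM in KO and 5.79, 3.07 and 3.8 RPM in HET, higher in the 3 lower-code libraries as class II was. In this list 9 of 10 markers had reads, and Cd209a was at 0 in every library. Only 2 markers, Zbtb46 and Itgax, reached the mean of 1 RPM, and 8 did not. Of these 2, only Zbtb46 had the lower-code libraries above, so the order of the sum is not shown for the list as a whole. Zbtb46, a transcription factor of conventional dendritic cells, measured 2.64, 1.95 and 0.656 RPM in KO and 2.78, 0.986 and 0.965 RPM in HET. The integrin Itgax measured 2.67, 2.59 and 1.46 RPM in KO and 2.33, 1.69 and 2.53 RPM in HET, with overlap between the code sets.

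Summed B cell markers, with reads for 7 of the 7 in the table, spanned 2.19 to 4.91 RPM over the KO libraries and 2.26 to 2.84 RPM over the HET libraries, led by Cd79a, a part of the B cell receptor, and Cd22, an inhibitory coreceptor. Of 12 T and NK cell markers 6 had reads, summing to 1.71 to 1.95 RPM over the KO libraries and 1.27 to 2.53 RPM over the HET libraries, and Cd3e, Cd3d, Cd8a, Nkg7, Klrb1c and Ncr1 were at 0 in every library. The highest T cell markers were the kinase Lck, at 1.12 to 1.58 RPM over the 6 libraries, and Cd4. Endothelial markers, 14 of 14 with reads, summed to 264.6 to 331.1 RPM over the KO libraries and 286.9 to 328.6 RPM over the HET libraries, with Plvap and Kdr highest. Acinar markers, 23 of 23 in the table with reads and led by the digestive enzymes Ctrb1 and Pnlip, summed to 4346.3, 16322.4 and 1098.7 RPM in KO and 39770.1, 940.4 and 545.1 RPM in HET, all 3 lower-code libraries being higher. The part of acinar, macrophage and dendritic cell RNA in the class II levels was not tested. In bulk RNA, fewer cells of a type and less RNA per cell cannot be told apart.

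**Figure D4:**
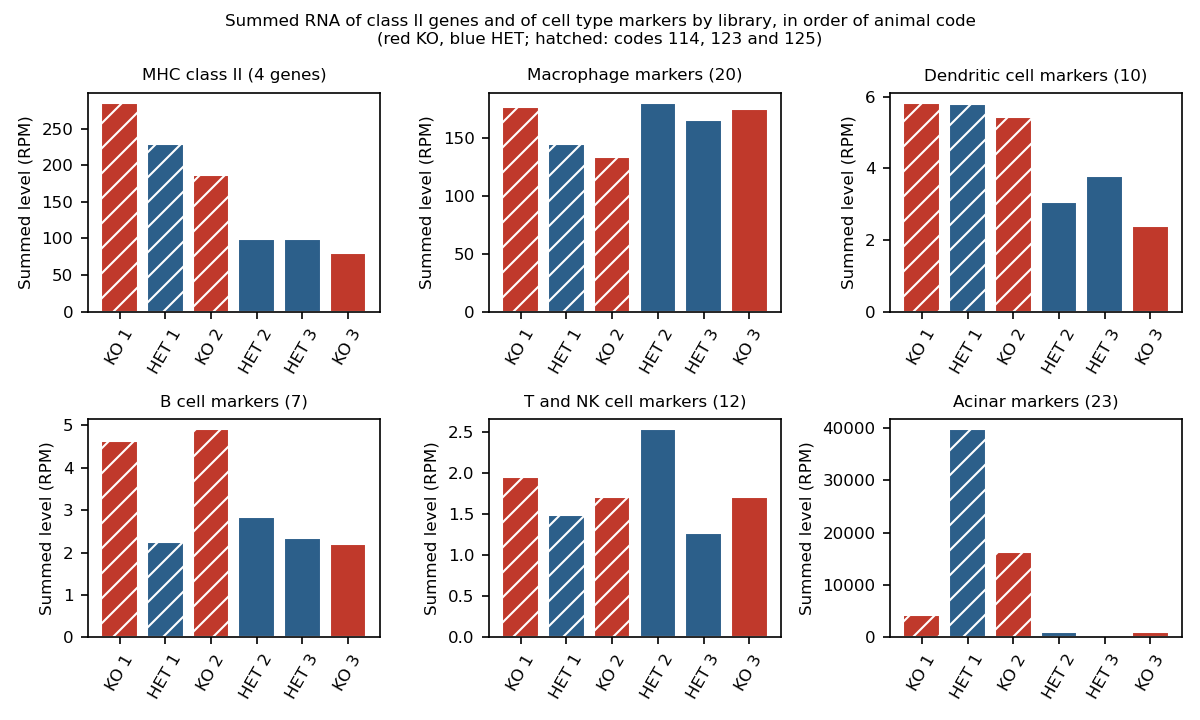
Summed level (RPM) of the class II genes and of marker lists of leukocytes and acinar cells by library, in order of animal code. The class II genes sum to 284.5 RPM in KO 1 and 80.4 RPM in KO 3, while the macrophage markers stay between 133.7 and 180.0 RPM.

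Other genes of the class II path gave 0 calls among 8 tested of 15, with 5 differences above 0, 3 below and a median of 0.07. H2-DMa, which loads peptides onto class II, measured 3.77, 3.23 and 2.73 RPM in KO and 2.49, 1.46 and 2.08 RPM in HET, and KO lay above HET (0.50, 0.01 to 1.00, limma unadjusted p = 0.048, adjusted p = 0.9998). Rfxank, a subunit of the factor that binds class II promoters, measured 15.3, 13.1 and 25 RPM in KO and 16, 21.7 and 27.8 RPM in HET. KO overlapped HET, and the lower-code libraries were all below the higher-code libraries. Of the 8 tested genes, 3 had the lower-code libraries above, 2 had them below and 3 overlapped. Over all genes tested, 16.8% had the lower codes above and 31.3% had them below. Picked after its values were seen, Ciita, the class II transactivator, was near the limit of detection at 0.343, 0.706 and 0.182 RPM in KO and 0.453, 0.0563 and 0.0302 RPM in HET, and was highest in the lower-code libraries. Other genes of the class I path gave 0 calls among 18 tested of 23 in the table, with 9 differences on each side of 0. H2-M3, which presents formylated peptides, measured 9.32, 7.57 and 8.49 RPM in KO and 10.1, 9.26 and 11 RPM in HET, and KO 1 lay just above the lowest HET library. H2-Q7, a nonclassical class I gene, measured 1.23, 2.86 and 0.692 RPM in KO and 6.69, 1.94 and 1.48 RPM in HET, with overlap.

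Upstream of the response, transcripts of the interferons themselves were scarcely detected. Of 10 interferon genes, Ifna1, Ifna4, Ifne, Ifng and Ifnl3 had 0 reads in all 6 libraries, which allows up to 0.0845 to 0.109 RPM in each. The other 5, Ifnb1 and Ifna2 among them, had at most 4 reads in any library. The floor of 3 reads covers counting error only. Receptors and Janus kinases gave 0 calls among 15 tested of 16, with 7 differences above 0, 8 below and a median of -0.04. The type I receptor chain Ifnar1 measured 25.6, 30.5 and 26.6 RPM in KO and 26.8, 30.6 and 29 RPM in HET, and the interferon gamma receptor chain Ifngr1 measured 16.9, 19.7 and 15.5 RPM in KO and 23.1, 13.7 and 19.1 RPM in HET, both picked after their values were seen. Both overlapped between KO and HET. Ifnlr1, the interferon lambda receptor, measured 4.42, 4.51 and 1.86 RPM in KO and 2.65, 1.24 and 1.57 RPM in HET. KO 1 and KO 2 were above every HET library and KO 3 was not (0.67, -0.07 to 1.42). Jak2, a kinase of the interferon gamma receptor, measured 41.5, 39.8 and 28.3 RPM in KO and 30.2, 27.6 and 28.5 RPM in HET, with KO 3 within the HET range.

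Genes that sense nucleic acids gave 0 calls among 14 tested of 18, with 7 differences on each side of 0 and a median of 0.01. Irf5, a transcription factor downstream of toll-like receptors, measured 8.43, 8.47 and 10.9 RPM in KO and 6.66, 6.34 and 6.36 RPM in HET. Every KO library was above every HET library (0.45, 0.04 to 0.87, limma unadjusted p = 0.037, adjusted p = 0.9998). Trim25, a ubiquitin ligase that acts on RIG-I, measured 67.1, 69.6 and 52.2 RPM in KO and 58.3, 57.2 and 47.9 RPM in HET, with overlap. Of a wider list of interferon-induced genes, 42 of 58 in the table were tested, 0 were called, 17 differences were above 0 and 25 below, and the median was -0.07. Parp14, which adds ADP-ribose to proteins, measured 16.3, 19.1 and 18.7 RPM in KO and 12.9, 14.8 and 14.2 RPM in HET, and the groups did not overlap (0.35, limma unadjusted p = 0.0631, adjusted p = 0.9998). Psmb10, a catalytic subunit of the immunoproteasome, measured 6.99, 8.07 and 16 RPM in KO and 9.12, 19.4 and 19.5 RPM in HET, with overlap by genotype and the lower-code libraries below.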

How the data were processed

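Polyadenylated RNA of 6 islet samples was sequenced by a commercial facility, per the labels' protocols. HISAT2, DESeq2 and GRCm38 are named in the submitters' processing notes, and the sources used here do not say how reads were counted per gene. The deposited values are log2 RPM per library, computed by the authors over 34245 genes, and the values themselves show 0.9 read written for 0 reads. The fold change (ratio) column in the deposited table is the authors' own and was not used. Library totals were taken from the value written for 0 reads, and read numbers were recovered from them: 100% of 93649 values under 1000 reads were whole within 0.01 read.

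RPM plus 1 was log2 transformed, genes whose mean reached 1 RPM were kept (14238), and KO was compared with HET by limma 3.58.1 (R 4.3.3; moderated test with trend and robust options, adjusted p under 0.05). All 6 libraries entered the fit, with no covariate. Scripts were tested on simulated data with 50 genes changed by each known fold. The fit called 34% of the genes changed 2-fold and 62% of those changed 4-fold, so smaller changes can be missed. The simulated spread was drawn separately for each gene and holds no order shared by animal code. Exon lengths and positions came from GENCODE M21, matched by position for 31 of the 38 genes and by symbol with overlap for 7. The 38 genes and all lists were chosen with earlier results of these data known. Named genes were those with the lowest p (4 interferon-induced, 4 class I and 2 class II, 2 in each other pathway list), the highest mean RPM (3, 3 and 2, and 2 in each marker list) and those without overlap between KO and HET; other genes of the 38 are described for completeness. Alternatives were other pseudocounts, filters and scalings, limma-voom on the recovered reads, covariates, a block for animal code and leaving out each library.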

Additional observations from a re-analysis of the deposited data

How the results depend on the processing

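Across 17 alternatives, 0 of all genes tested were called; of the 38 genes these tests held 35, except 38 with no filter on low values and 29 with a mean of at least 5 RPM. Of 422 log2 differences of the 25 named genes that were tested, 414 kept their sign and 8 did not. With the animal code as a block, the sign turned for Irf1 (-0.04), H2-Eb1 (-0.09), Cd74 (-0.20) and H2-Aa (-0.12). Leaving out each library in turn gave -0.01 to 1.06 for H2-Eb1, -0.19 to 0.55 for Cd74 and -0.02 to 1.02 for H2-Aa, the values under 0 coming without KO 1 and, for Cd74, also without HET 3 (-0.03). The interferon-induced median was 0.13 with no filter on low values, against 0.06. Leaving out 1 library moved it between 0.04 and 0.12, the class I median between -0.29 and -0.16, the class II median between -0.01 and 1.04, and the number of the 35 tested genes without overlap between KO and HET between 5 (14.3%, without KO 2, against 10.9% of all genes tested) and 11 (31.4%, without HET 1, against 33.1%). Genes with an unadjusted p under 0.05 numbered 250, and 84 to 1702 when 1 library was left out, 767 with the block, 984 with the acinar share as a covariate, 130 with the macrophage level, 564 with no filter and 157 with a mean of at least 5 RPM. No paired analysis was possible because the labels carry no replicate numbers shared by KO and HET mice. With 3 mice a group, differences of the size of the class I medians lay within the intervals, and genes under 1 RPM rest on few reads.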

Other observations

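Some genes beyond the 38 had the order of Tapbp, with the lower-code libraries (KO 1, KO 2 and HET 1) below the higher-code libraries. All genes named in this paragraph were picked after their values were seen, and the order is described without a test. Of the 18 tested genes in the list of other class I genes, 4 had the lower codes above, 3 had them below and 11 overlapped. Over all genes tested, 16.8% had the lower codes above and 31.3% had them below. Psmb8, a catalytic subunit of the immunoproteasome, measured 7.74, 6.05 and 13.3 RPM in KO and 5.95, 14.1 and 15.3 RPM in HET. The proteasome activator subunits Psme1 and Psme2 measured 24, 17.3 and 43.9 RPM and 25.2, 18.6 and 43.2 RPM in KO, and 18.0, 39.3 and 45.7 RPM and 17.6, 41.6 and 47.3 RPM in HET. In each of these genes the 3 lower-code libraries were below the other 3, and KO overlapped HET. Ifi30, a lysosomal thiol reductase, measured 11.9, 12.1 and 34.2 RPM in KO and 12.7, 30.3 and 34.9 RPM in HET, in the same order, although it acts in class II presentation, whose 4 genes had the opposite order. Cxcl10, a chemokine induced by interferon gamma, measured 3.91, 8.54 and 1.38 RPM in KO and 6.76, 1.75 and 0.995 RPM in HET, higher in the lower-code libraries. Of the 42 tested genes of the wider interferon-induced list, 10 had the lower-code libraries above and 16 had them below, where these shares were 16.8% and 31.3% over all genes tested.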
